A study of Mus musculus with 4 samples.

Results

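Of the 54838 genes listed in each library, 7 are described here: Aplp1, Kif21b, Plppr3, Agap2, Atp1b2 and Susd2, together with Rest, the gene of the repressor that keeps many neuronal genes silent in other tissues. They were found by gene symbol. The first 6 were picked because their levels were much higher in the Acvr2a knockout libraries of this comparison, so their differences are given as descriptions and were not tested. Rest was set beside them for its known role, and its difference is likewise given without a test. All 7 passed the filter on low counts that left 12510 genes for testing. Neural-type refers to where most of these genes are known to be used, and the markers of neurons themselves, given further on, were mostly at or near 0.

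The cells were Hepa1-6, a line from a mouse liver cancer, and their bulk RNA was sequenced. The NC group held 2 libraries of cells wild type for Acvr2a, and the KO group held 2 libraries of Acvr2a knockout cells. Acvr2a encodes a type II receptor for activins. No other allele, agent or time was labelled for either group. Knockout cells were described by the submitters as subclones, and whether the 2 KO libraries came from 1 subclone or from separate ones was not stated, nor was the origin of the 2 NC libraries in separate cultures, so p-values measure only the spread between these libraries, which may be technical. A property of a subclone and an effect of the lost receptor cannot be told apart in this design.

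Library totals ran from 11597923 to 13910582 expected counts, which are the reads or fragments the authors' software assigned to each gene. CPM is a gene's count relative to its library's total, scaled by edgeR's TMM factors, which lay between 0.981 and 1.02. Acvr2a RNA itself had 7.12 and 7.80 CPM in the NC libraries and 5.69 and 7.18 CPM in the KO libraries. The groups overlapped, and the log2 fold change was -0.21 (SE 0.20, n = 2 per group, edgeR quasi-likelihood adjusted p = 0.433). RNA level therefore did not separate the labels. Acvr2a exons share 446 bases with Orc4 on the opposite strand, so part of these reads are uncertain. KO below means the libraries labelled KO. The hepatoma identity was checked by markers: Krt18 had a mean of 1123 CPM in NC against 1168 CPM in KO and Alb 799 against 1058 CPM, while Ttr, Apoh, Fga, Fgg and Serpina1a were near 0 in every library.

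REST is a zinc-finger protein that binds a DNA element called RE1 in and near neuronal genes. It recruits repressor complexes, one built on SIN3 proteins and another on CoREST proteins with the demethylase LSD1 (Kdm1a) and the deacetylases HDAC1 and HDAC2. In most cells outside the nervous system REST is present and its targets are silent. In neurons REST is lost and the targets are used.

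The promoter windows of Aplp1 and Plppr3 are shown because these are the members whose window held a piece of the RE1 element. RefSeq windows on GRCm38.p6, from 250 bases before to 50 after the start, were at hand for Aplp1, Plppr3 and Agap2. The element searched for was CAGCACC, 2 bases of any kind, then GGACAG, on both strands, with at most 1 mismatch over the 13 fixed letters. Its left piece CAGCACC and right piece GGACAG, both contained in the whole, were also sought alone. Capitals mark GGACAG. The Aplp1 window is chr7:30445533-30445832 on the minus strand, with a GC content of 68.7%, and the Plppr3 window is chr10:79874585-79874884 on the minus strand, with a GC content of 66.7%. The median over all windows was 52.7%.
Aplp1 promoter: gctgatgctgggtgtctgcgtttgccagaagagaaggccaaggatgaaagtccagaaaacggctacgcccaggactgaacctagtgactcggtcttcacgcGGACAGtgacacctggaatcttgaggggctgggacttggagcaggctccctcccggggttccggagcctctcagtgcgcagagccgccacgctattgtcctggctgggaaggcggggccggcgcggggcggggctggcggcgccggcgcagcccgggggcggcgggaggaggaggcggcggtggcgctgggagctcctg
Plppr3 promoter: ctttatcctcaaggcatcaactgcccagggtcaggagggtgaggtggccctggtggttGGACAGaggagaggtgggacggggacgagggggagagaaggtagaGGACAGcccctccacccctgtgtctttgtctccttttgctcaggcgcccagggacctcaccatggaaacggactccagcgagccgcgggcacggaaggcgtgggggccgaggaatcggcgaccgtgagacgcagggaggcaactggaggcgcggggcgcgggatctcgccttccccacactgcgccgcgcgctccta
Aplp1 held 1 such piece and Plppr3 held 2, and 22.2% of all 32851 windows held at least 1. The Agap2 window, chr10:127078657-127078956 on the plus strand, held neither piece. CAGCACC was in 7.14% of all windows and in none of these 3.

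No window of a member held the whole element within 1 mismatch. The windows read were the 3 promoters and the first 300 bases of all 35 transcripts of the 7 genes in GENCODE M21, 38 windows in all. Among all windows a match was rare: 61 of 32851 promoters (0.186%) and 420 of 131058 transcript starts (0.32%). Of the 60 genes listed as known REST targets, 12 had a match in the first bases of a transcript. The closest stretch of each member but Rest is printed above examples from listed targets, which were picked because they match within 1 mismatch. The difference in letters between these lines was therefore set by that choice. Listed targets without a match are not printed. With 12 of the 60 matching in transcript starts, the lack of a match does not set a member apart from listed targets. How close the best stretch of an ordinary window comes is not given here. Capitals mark fixed letters that fit the element, and each stretch is written in the element's orientation.
Aplp1-201: aAGCAgCaatGACAG
Kif21b-204: CgGCACCagGGtCtG
Plppr3 promoter: CctCACCatGGAaAc
Agap2 promoter: CAaCACCgctGtCtG
Atp1b2-201: gtGCACCgaGGctAG
Susd2-202: CAGCgCaggGaACAG
Chrnb2-201: CAGCACCacGGACAG
Grin1-201: CAGCACCtcGGACAG
Syp-202: CAGCACCgtGGACAG
Rundc3a-201: CAGCACCtcGGAgAG
Vgf-204: CAGCACgctGGACAG
Celsr3 promoter: CAGCACCgtGGgCAG
Aplp1, Kif21b, Susd2 and Rest came no closer than 3 mismatches, and Plppr3, Agap2 and Atp1b2 no closer than 4. Chrnb2, Grin1 and Syp had all 13 letters. These windows hold only sequence next to starts and early exons, so an element elsewhere in a gene was not searched for.

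The 6 higher genes ranged from low to moderate levels in NC, and in each of them both KO libraries lay above both NC libraries. Over all tested genes 34.8% had that order, and because the 6 were picked from this contrast nothing is read from their count. Their summed level was 29.8 and 36.2 CPM in NC against 159.9 and 195.5 CPM in KO. Their log2 fold changes ran from 2.03 to 3.16 with a median of 2.97, where the median over all tested genes was -0.0037. Only 1.41% of the tested genes, 176 in all, had a log2 fold change of at least 2.03, the lowest of the 6. Just inside and just outside that value were Malat1 and Gm28042, both at 2.03 to 2 decimals.

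**Figure D1:**
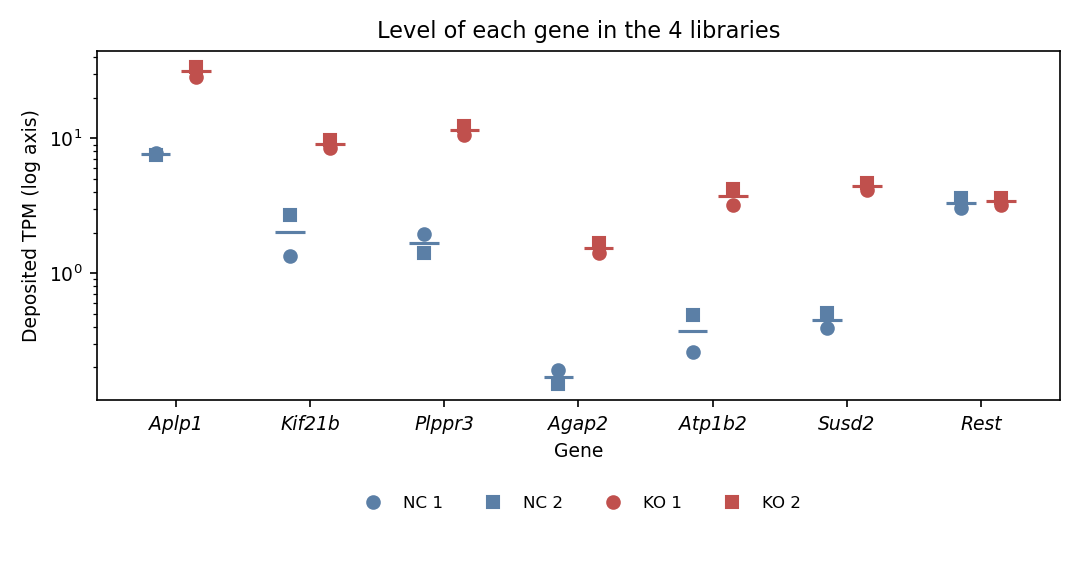
Deposited TPM of the 7 genes in each library on a log axis, NC in blue and KO in red, circles for replicate 1, squares for replicate 2 and a bar at each group's mean. The 6 higher genes separate by group in all libraries, while the Rest libraries of both groups lie between 3.02 and 3.60 TPM.

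Aplp1 encodes amyloid precursor-like protein 1, a membrane protein of the APP family that is made mainly in neurons and joins cells at synapses. The gene (ENSMUSG00000006651.8) lies on the minus strand of GRCm38 chr7:30434982-30445535 with 15 merged exons. It had 14.4 and 13.6 CPM in NC and 51.0 and 63.1 CPM in KO. Both KO libraries were several times above both NC libraries, which sat close together. The means were 14.0 ± 0.60 and 57.0 ± 8.53 CPM (SD, n = 2 each), a log2 fold change of 2.03 (SE 0.13). In TPM, the authors' values scaled by library and transcript length, Aplp1 was the most abundant of the 7 in every library, at 7.73 and 7.51 TPM in NC and 28.7 and 34.04 TPM in KO.

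Plppr3 encodes a phospholipid phosphatase-related membrane protein of growing axons. It (ENSMUSG00000035835.14) lies on the minus strand of chr10:79860475-79874634 with 7 merged exons. Its levels were 2.73 and 3.39 CPM in NC and 19.7 and 24.9 CPM in KO. The groups were far apart, with a log2 fold change of 2.85 (SE 0.21). Plppr3 exons share 251 bases with Ptbp1 and 159 with Prtn3, both on the opposite strand. Whether counting used strand is not given in the sources used here, so part of its reads are uncertain. Ptbp1, an abundant splicing factor, was lower in KO (log2 fold change -0.29, adjusted p = 0.0167), the opposite direction to Plppr3. Without NC replicate 1 the Ptbp1 call was lost (adjusted p = 0.0745).

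Atp1b2 encodes the beta 2 subunit of the sodium-potassium pump, also known as the adhesion molecule on glia. It (ENSMUSG00000041329.13) lies on the minus strand of chr11:69599736-69605942 with 5 merged exons. Its counts were 8 and 18 in the NC libraries, against 100 and 141 in the KO libraries. In CPM these were 0.704 and 1.30 against 7.59 and 10.4, a log2 fold change of 3.12 (SE 0.35). The NC libraries differed from each other by a ratio of 1.85, and the exact Poisson intervals of their counts (3.45 to 15.8 and 10.7 to 28.4, 95%) overlapped. Such intervals cover counting error only, since PCR copies of a molecule were not told apart.

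Susd2 encodes a membrane protein with a sushi domain, known from adhesion between cells. It (ENSMUSG00000006342.15) lies on the minus strand of chr10:75636706-75644008 with 13 merged exons. It drew 12 and 19 counts in the NC libraries, against 134 and 161 in the KO libraries, or 1.06 and 1.37 against 10.2 and 11.9 CPM. Of the 6 it had the largest fitted log2 fold change, 3.16 (SE 0.30), with Atp1b2 and Agap2 within 1 SE of it. It ranked 35th among the 12510 tested genes.

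Kif21b encodes a kinesin motor of dendrites that also acts on microtubule growth. It (ENSMUSG00000041642.18) lies on the plus strand of chr1:136131389-136177998 with 34 merged exons. It had 9.94 and 15.8 CPM in NC and 65.0 and 77.1 CPM in KO. The NC libraries differed by a ratio of 1.59, and both stayed far under KO. The log2 fold change was 2.45 (SE 0.14) from means of 12.9 ± 4.15 and 71.1 ± 8.55 CPM (SD, n = 2 each). Per length it was lower than Aplp1, at 1.35 and 2.71 TPM in NC and 8.49 and 9.75 TPM in KO.

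Agap2 encodes a protein with a GTPase domain and an ARF GTPase-activating domain, known for enhancing PI3-kinase and Akt signalling. It (ENSMUSG00000025422.9) lies on the plus strand of chr10:127075284-127093169 with 20 merged exons. NC libraries gave it 11 and 10 counts, KO libraries 85 and 108. In CPM these were 0.968 and 0.722 against 6.45 and 8.0, a log2 fold change of 3.10 (SE 0.37). Per length it was the lowest of the 7 in all 4 libraries, from 0.15 TPM in NC replicate 2 to 1.66 TPM in KO replicate 2.

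Rest (ENSMUSG00000029249.15) lies on the plus strand of chr5:77265491-77286432 with 5 merged exons. It had 19.2 and 21.7 CPM in NC and 18.7 and 21.8 CPM in KO. The groups overlapped fully, and replicate 2 was the higher of each. The means were 20.5 ± 1.81 and 20.3 ± 2.24 CPM (SD, n = 2 each), a log2 fold change of -0.017 (SE 0.14) with a 95% interval from -0.30 to 0.26. A change in Rest RNA beyond that interval was therefore not seen, and REST protein was not measured.

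Replicate 2 was above replicate 1 within KO in all 6 higher genes, by ratios from 1.17 to 1.38, and this order held for 6354 of the 12510 tested genes. Within NC it was above in 4 of the 6. Susd2, Plppr3 and Agap2 share chromosome 10 but are 4.22 and 47.2 Mb apart. The libraries are of bulk RNA, so more RNA per cell and more cells that make it cannot be told apart.

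**Figure D2:**
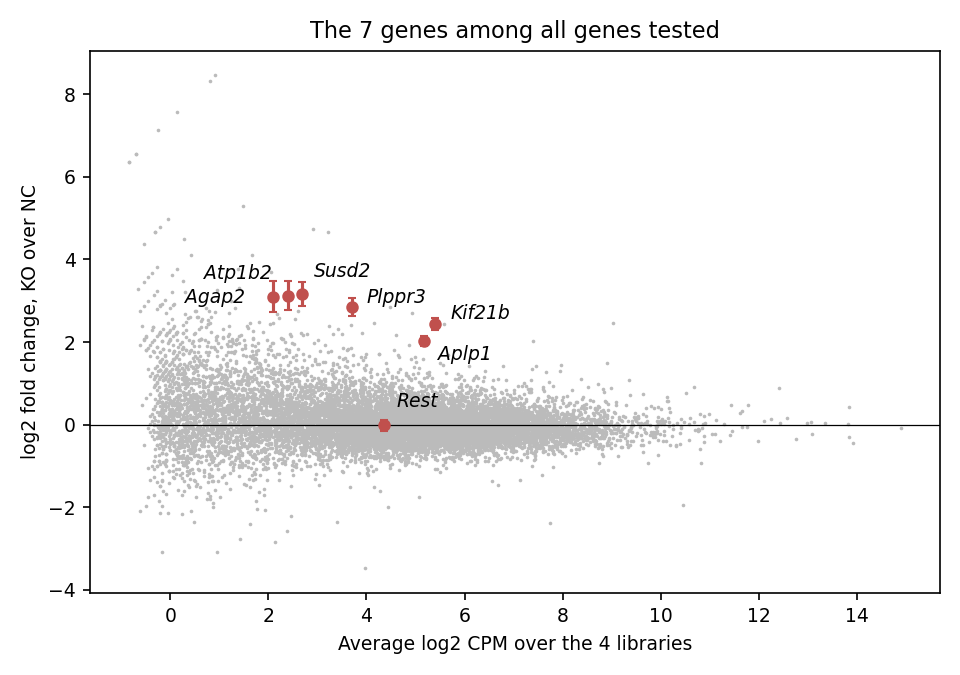
Log2 fold change of KO against NC over average log2 CPM for the 12510 tested genes in grey, with the 7 described genes in red and bars of 1 SE. The 6 higher genes lie between 2.03 and 3.16 at low to moderate levels, and Rest lies at -0.017.

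Relatives of the 6 genes moved in both directions. Beside each count stands the background: edgeR's quasi-likelihood test with Benjamini-Hochberg adjustment passed 0.05 in 37.9% of the 12510 tested genes, 19.7% higher and 18.2% lower in KO. Of 16 tested genes of the APP family, its secretases and adaptors, 6 rose and 4 fell, with a median log2 fold change of 0.071. Aplp2, the broadly made relative of Aplp1, rose from 136 ± 11.2 to 249 ± 12.8 CPM (SD, n = 2 each), a log2 fold change of 0.87 (adjusted p = 5.01e-08). Sorl1, a sorting receptor for APP, rose by 1.01 on the log2 scale, and App itself by 0.31 (adjusted p = 0.00764). Psenen, a subunit of gamma-secretase, fell by 0.56. Without NC replicate 2 the calls in this list went from 10 to 5, and without NC replicate 1 those that rose went from 6 to 3 and App was lost (adjusted p = 0.0719).

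Among 19 tested transport kinesins 10 rose and 2 fell, with a median of 0.39. Kif1a, a motor of synaptic vesicle precursors, had 2.20 and 2.38 CPM in NC and 10.1 and 10.6 CPM in KO. Its groups did not overlap, and the log2 fold change was 2.17 (SE 0.24, adjusted p = 3.94e-08). Kif21a, the closest relative of Kif21b, rose by 0.94 (adjusted p = 5.75e-07). Kif5c, a heavy chain of conventional kinesin, fell by 0.92 in counts (adjusted p = 7.83e-08), but on the log2(TPM + 1) scale its difference was -0.092 (adjusted p = 0.692), and its weighted transcript length was 4224 and 4909 bases in NC and 2653 and 2932 in KO. Both TPM scales passed 6 kinesins in place of 12.

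The phospholipid phosphatase family had 6 tested members besides Plppr3, of which 1 rose and 1 fell. Plppr2, like Plppr3 a member without a known phosphatase activity, had 6.07 and 5.34 CPM in NC and 15.6 and 19.2 CPM in KO (log2 fold change 1.61, adjusted p = 5.67e-08). Plpp2, an active phosphatase, fell by 0.85. Plppr1, Plppr4 and Plppr5 had no count in any library.

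Of 22 tested ARF GTPase-activating proteins 4 rose and 1 fell, close to or under the background. Asap3 rose most, by 1.52, and Arfgap2, a GAP of Golgi transport, fell by 0.52. The nearest relatives of Agap2 stood at log2 fold changes of 0.023 (Agap1) and 0.031 (Agap3). Without KO replicate 2 the number that rose was 2. Of 17 PI3-kinase and Akt pathway genes, the signalling step AGAP2 is known for, 7 rose and 3 fell with a median of 0.091. Pik3cd rose by 1.97, Pik3r3 by 1.92 and Inpp4a by 0.91, while Akt1 fell by 0.53.

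Of the 6 tested sodium-potassium pump subunits and FXYD proteins besides Atp1b2, 1 rose and 1 fell, with a median log2 fold change of -0.091. On both TPM scales 0 of the 6 were called, so neither call held on every scale. The other beta subunits did not pass: Atp1b1 had 24.5 and 23.7 CPM in NC and 23.4 and 26.6 CPM in KO (0.055, adjusted p = 0.769), and Atp1b3 had a log2 fold change of -0.27 (adjusted p = 0.0554). The groups of Atp1b1 overlapped. Of the SUSD genes, Susd1 (0.14, adjusted p = 0.414) and Susd6 (0.091, adjusted p = 0.479) were tested and neither passed, at an unadjusted p under 0.05 or with the DESeq2 Wald test either, and Susd4 and Susd5 were at 0.

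**Figure D3:**
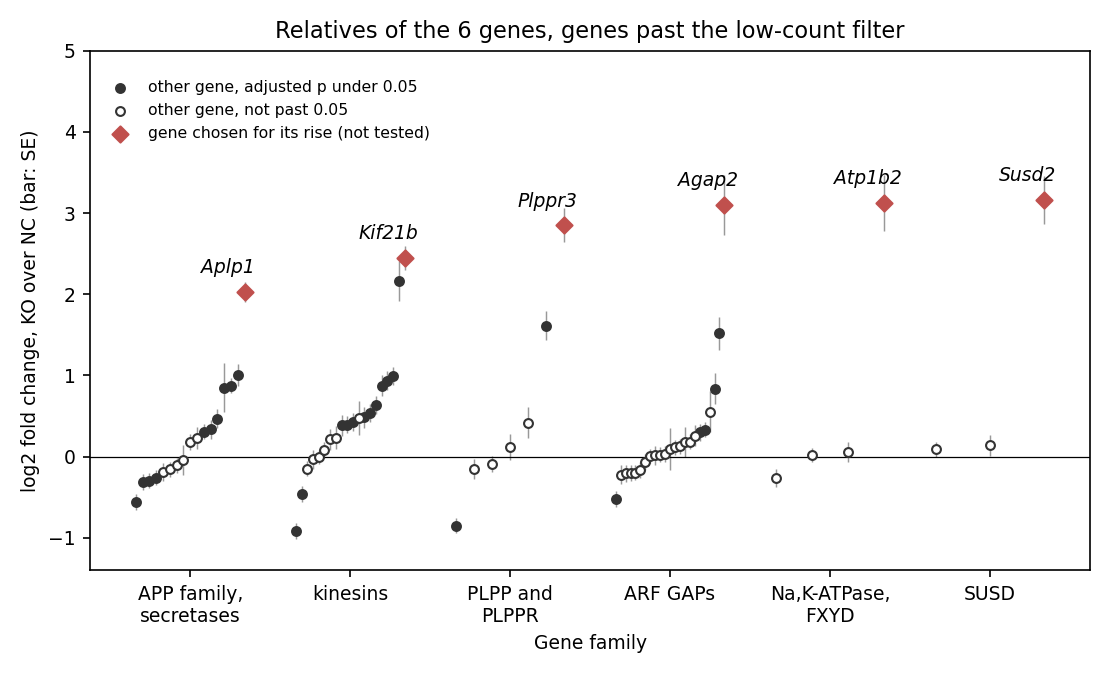
Log2 fold change with bars of 1 SE for tested relatives of each gene, by family, filled where the adjusted p was under 0.05 and open where not, with the described gene as a red diamond. In these families the described genes lie at 2.03 to 3.16. The relative Kif1a, at 2.17, lies within that range, under Kif21b of its own family at 2.45.

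REST's partners did not move one way. Of 24 tested genes for corepressors and regulators of REST, 5 rose and 2 fell, 29.2% in all against 37.9% of tested genes, and the median log2 fold change was 0.0077. Rcor2, a CoREST protein, had 30.9 and 30.04 CPM in NC and 63.8 and 57.0 CPM in KO (log2 fold change 0.99, SE 0.11, adjusted p = 3.94e-08). Hmg20b and Phf21a, parts of the CoREST complex, rose by 0.65 and 0.48. Ctdsp1, a phosphatase known to act on REST, fell by 0.48 and the corepressor Ctbp1 fell by 0.53. The core enzymes did not pass the test: Kdm1a was at -0.16 and Hdac1 at -0.16. Rcor1 was at 0.19, Sin3a at 0.0025, and Srrm4, whose protein splices Rest in neurons, at -0.43 (adjusted p = 0.117).

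The listed known REST targets, none of which is a described gene, were mostly silent in both groups. Of 60 listed targets with an RE1 element, 44 fell under the count filter, and 22 of those had no count in any library. Of the 16 tested, 7 rose and 0 fell, a share of 43.8% higher against 19.7% of all tested genes. This share leaves out the 44 targets under the filter. Celsr3, among the 7, passed the filter only through its KO libraries, so a call for it could only be higher. The DESeq2 Wald test called 5 higher and 0 lower, and 0 were lower at an unadjusted edgeR p under 0.05. With limma on log2(TPM + 1), 5 were called, 4 higher and 1 lower, and on log2(TPM + 0.1) only 2 were called, both higher, so neither the count nor the single direction held on every scale. The median log2 fold change was 0.48. Dnm1, the dynamin of synaptic vesicle uptake, had 8.27 and 6.57 CPM in NC and 22.5 and 25.7 CPM in KO (log2 fold change 1.71, SE 0.16, adjusted p = 3.44e-09). Rundc3a rose from 49.7 ± 4.95 to 83.7 ± 4.97 CPM (SD, n = 2 each), by 0.75 on the log2 scale (adjusted p = 1.50e-06). Both had groups that did not overlap. Vgf, a secreted neuropeptide precursor, rose by 0.82.

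Several of these calls rested on the scale or on 1 library. Unc13a, a synaptic release factor, rose by 1.13 in counts (adjusted p = 3.22e-08), but on the log2(TPM + 1) scale the difference was 0.30 (adjusted p = 0.251), with lengths of 2890 and 3752 bases in NC against 5925 and 5528 in KO. Celsr3, a cadherin of axon guidance, had 0, 2, 11 and 12 counts in NC replicates 1 and 2 and KO replicates 1 and 2. Its edgeR call (log2 fold change 3.30, adjusted p = 0.00343) was lost with the DESeq2 Wald test (adjusted p = 0.0594). It was also lost with limma on log2(TPM + 1) (0.12, adjusted p = 0.581) and log2(TPM + 0.1) (adjusted p = 0.365). Without NC replicate 1 its log2 fold change was 2.50. Without KO replicate 2 the targets that rose went from 7 to 3. Of the 6 tested targets with an element within 1 mismatch in these windows, Rundc3a, Vgf and Celsr3 passed as higher in the edgeR fit of counts, each with 1 mismatch. The others, all with 13 fitting letters, did not pass: Chrnb2 had a log2 fold change of 0.97 (adjusted p = 0.0614), Syp of -0.56 (adjusted p = 0.358) and Syt4 of -0.97 (adjusted p = 0.136). Grin1, named after its values were seen, had no count in NC, 6 and 9 counts in the KO libraries, and fell under the filter.

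**Figure D4:**
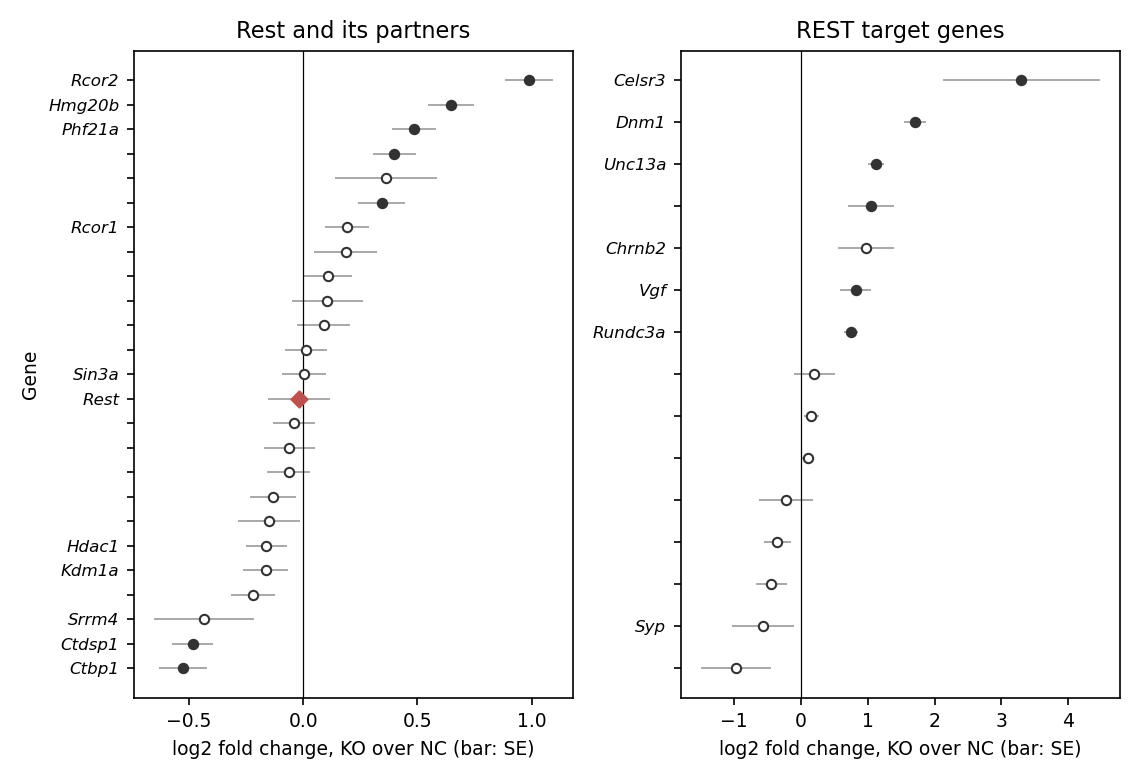
Log2 fold change with bars of 1 SE for Rest (red diamond) and tested genes of its partners (left) and for tested REST target genes (right), filled where the adjusted p was under 0.05, with names for the genes given in the text. Partners scatter on both sides of 0 with a median of 0.0077, and the plotted targets that passed in this fit of counts lie above 0.

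Most markers of neurons were at or near 0 in both groups. Of 20 pan-neuronal markers 3 were tested and 1 passed, Eno2, a neuronal enolase also made in tumour cells, which rose from 15.3 to 28.2 mean CPM. Elavl2, Elavl4, Snap25, Stmn2, Nefl, Nefm, Nefh, Dcx and Uchl1 had no count in any library, and Tubb3 had at most 1. The list's summed level ran from 73.7 to 76.0 CPM in NC and from 90.5 to 95.2 CPM in KO. Of the 20 markers 17 fell under the count filter, 9 of them without a count in any library. A marker as high in both KO libraries as the 6 genes would have passed that filter. The low level of the 17 in KO is therefore no separate result. Eno2 made up only part of the summed level, so markers other than Eno2 were also expressed in both groups.

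Glial markers gave 1 that rose, Aldh1l1, of 3 tested of 14, and that call was lost without KO replicate 2 (adjusted p = 0.131). Their sum was 5.37 to 6.93 CPM in NC and 8.27 to 9.70 CPM in KO, with Aqp4, Sox10, Olig1, Olig2, Slc1a3 and Pmp2 at 0. Of the neuroendocrine markers, 4 of 14 were tested, where 1 rose and Ddc fell, and neither call held without NC replicate 1. Their sum was 403.7 to 416 CPM in NC and 434 to 445 CPM in KO, with Chga, Scg3, Insm1, Neurod1 and Pcsk1 at 0.

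Markers of other cells also differed. The leukocyte list of 12 genes summed to 24.5 and 27.9 CPM in NC and 51.8 and 64.1 CPM in KO, most of it Cd68, a lysosomal protein found in many cells, and Cd3e, Cd8a and Nkg7 were at 0. Ptprc had at most 2 counts. Endothelial markers, 8 genes, summed to 2.53 to 3.43 CPM in NC and 4.25 to 5.18 CPM in KO, with Cdh5, Tek and Emcn at 0. Of 10 fibroblast and stellate markers 3 of 4 tested rose, against 19.7% of all tested genes, and Col3a1, Lum and Lrat were at 0. Among the 3 was Col1a1 with 6, 5, 38 and 41 counts. Only its KO libraries brought Col1a1 past the count filter, which left a higher call as the only one possible. Its rise is therefore no separate result. Des and Pdgfra had log2 fold changes of 1.28 and 0.97. The sum of this list was 1485 to 1494 CPM in NC and 1640 to 1719 CPM in KO, of which Col1a1 was a small part. Markers of this list other than Col1a1 were thus well expressed in both groups. Of 16 tested hepatocyte and hepatoma markers 4 rose and 7 fell, 68.8% in all against 37.9% of all tested genes. The liver factor Hnf4a fell from 222 ± 7.23 to 111 ± 7.37 CPM (SD, n = 2 each, edgeR adjusted p = 4.27e-09). Gpc3, of the same list, went the other way, with a log2 fold change of 2.74. The sum of the hepatocyte and hepatoma list was 5953 to 6411 CPM in NC and 5125 to 5262 CPM in KO. The part of these levels in the 6 genes' difference was not tested.

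Splicing factors known for the choice between neuronal and other exons gave 2 that rose and 2 that fell of 13 tested. Celf5 rose by 1.79 and Mbnl2 by 0.39, Ptbp1 and Celf1 fell, and Ptbp2, the neuronal counterpart of Ptbp1, was at -0.19 (adjusted p = 0.243). The Celf1 call was lost without NC replicate 2 (adjusted p = 0.197). On the log2(TPM + 1) scale 2 of the list were called, both higher, and the calls of Ptbp1 (adjusted p = 0.156), Celf1 (adjusted p = 0.379) and Mbnl2 (adjusted p = 0.0674) were lost, and likewise on log2(TPM + 0.1).

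Genes next to the 7 did not share their size of difference. The 3 nearest tested genes on each side gave 42 neighbours, at midpoint distances from 8 kb (Ptbp1 to Plppr3) to 4147 kb (Adgrl3 to Rest), so not all were adjacent. Of the 42, 16 passed the test (38.1% against 37.9% of all tested genes), 9 higher and 7 lower. The median log2 fold change of the 42 was -0.0004, and their range ran from -0.73 to 1.38. Arhgap33, next to Aplp1, was the highest, with 2.90 and 4.40 CPM in NC and 9.26 and 10.1 CPM in KO (adjusted p = 2.12e-05). Trp53, the tumour suppressor gene next to Atp1b2, fell by 0.71 (adjusted p = 1.44e-06), and Cdk4, a cell cycle kinase next to Agap2, fell by 0.54. Os9, also near Agap2, rose by 0.57, and Noa1, near Rest, fell by 0.50.

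Genes most like the 6 in pattern were sought by the root mean square distance of log2 CPM, centred on each gene's mean, to the mean profile of the 6 over the 4 libraries. Among 11166 candidates the nearest were Kifc2, another kinesin, at 0.0985 log2 units, Txnip at 0.114, Rnase1 at 0.126, Hist1h1c at 0.146 and Cd74 at 0.149. Their log2 fold changes were 2.69, 2.47, 2.55, 2.70 and 2.45. Of the 6 themselves Plppr3 was nearest at 0.0618 and Aplp1 farthest at 0.345. With 4 libraries in 2 groups this measure mainly ranks genes by the size of the difference between groups.

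The deposited files also give each gene's transcript length weighted by abundance, which moves when the mix of transcripts moves. Kif21b had 8067 and 6763 bases in NC and 9115 and 9021 in KO. Both KO libraries lay at or near the 9115 bases of its transcript Kif21b-201, and both NC libraries were shorter. Aplp1 was also longer in KO, with 2305 and 2298 bases against 2224 and 2262. Atp1b2 was shorter in KO, with 3000 and 2974 bases against 3174 and 3217, and so was Susd2, with 3107 and 3064 against 3151 and 3263. In these 4 genes the groups did not overlap. Agap2 had 5573 bases in every library, the length of Agap2-202. Plppr3, with 1725 and 2912 bases in NC and 2400 and 2481 in KO, and Rest, with 7004 and 6978 against 7004 and 6980, overlapped between groups. So of the 7 genes 2 were longer, 2 were shorter and 3 showed no order between groups. Of the 10087 tested genes with a varying length, 15.6% were longer and 23.4% shorter in both KO libraries. The NC lengths of Atp1b2 and Susd2 rest on 8 to 19 counts each.

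**Figure D5:**
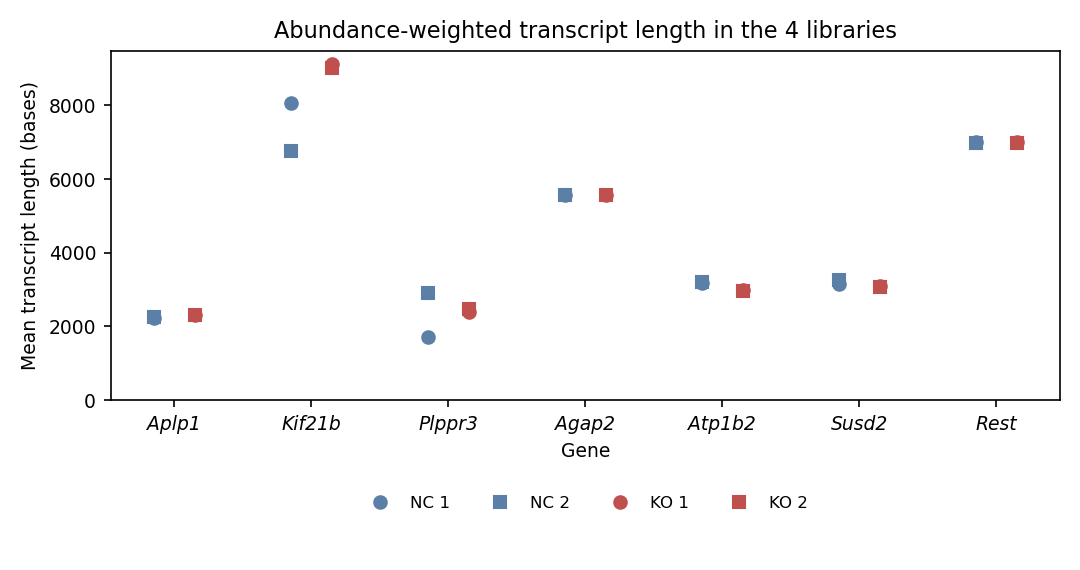
Abundance-weighted transcript length of each of the 7 genes in bases by library, NC in blue and KO in red, circles for replicate 1 and squares for replicate 2. Kif21b runs from 6763 and 8067 bases in NC to 9021 and 9115 in KO, and Agap2 stays at 5573.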

How the data were processed

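RNA from 2 NC and 2 KO libraries of Hepa1-6 was sequenced with a directional kit, per the labels' protocols. FastQC, STAR, RSEM and DESeq2 and the builds GRCm38 and mm10 are named without versions, per the submitters' processing notes. The annotation release and strand setting are not given in the sources used here. The deposited files give, per the file headers, an expected count per gene, which is not normalised, the authors' TPM (scaled by library and transcript length) and a transcript length, 1 file per library.

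Expected counts were rounded, which moved a library total by at most 0.000188%. Genes were filtered with filterByExpr (12510 kept, holding at least 99.9% of counts) and tested two-sided with edgeR 4.0.16's quasi-likelihood test, TMM scaling and Benjamini-Hochberg adjustment over all tested genes at 0.05, in R 4.3.3. CPM means carry the SD over libraries. The script was tested on simulated data. DESeq2 1.42.0 and limma 3.58.1 on log2(TPM + 1) and log2(TPM + 0.1) served as alternatives, with other scaling factors, no filter, a replicate block and each library left out. Coordinates are 1-based from GENCODE M21, GRCm38, where 54809 of 54838 gene IDs matched without version.

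The members and the 17 gene lists were chosen with earlier results of these data known. Genes were named by rule: the members, Acvr2a, up to 5 genes past 0.05 with the lowest p in each list and among neighbours, any gene a result turns on, and the 5 most alike in pattern among genes of average log2 CPM of at least 0. Replicate numbers pair nothing in the labels. Some genes of the lists are not reported here by name and are left out of the plots, while the counts cover whole lists.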

Additional observations from a re-analysis of the deposited data

How the results depend on the processing

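The median log2 fold change of the 6 higher genes was 2.97, between 2.74 and 3.13 with 1 library left out, 1.84 on the log2(TPM + 1) scale and 2.65 on log2(TPM + 0.1). A pseudocount of 1 exceeds the NC level of Agap2, Atp1b2 and Susd2 in TPM, and Agap2 had its lowest value there, 1.11 against 3.10. Rest lay between -0.14 and 0.090 throughout. Genes passing the test numbered 4741, and 2158 and 2099 on the 2 TPM scales in that order. Listed genes that passed went from 79 to 51 and 48, and neighbours from 16 to 10 and 8. With a replicate block 5006 genes passed and the median of the 6 was 2.98. Deviations of same-numbered libraries correlated at -0.0116. With 2 libraries per group both numbers give this same value, so it cannot decide whether same-numbered libraries shared a culture or batch. Of 58 named genes 40 kept their call in all 11 alternatives and 0 reversed. With 2 libraries per group and NC counts of 8 to 19, the size of the difference in Atp1b2, Agap2 and Susd2 is the least precise.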
